A study of Mus musculus with 4 samples.

Results

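The genes described here set the mitochondrial membrane potential (MMP) or draw on it: *Ucp2*, *Atp5if1* (listed as *Atpif1* in the annotation), *Slc25a4*, *Slc25a5*, *Mcu*, *Micu2*, *Vdac1*, *Vdac2* and *Vdac3*. They were chosen by name for their place in mitochondrial energy metabolism, with earlier results of these data known. All 9 were found among the 20197 genes of the expression table. RNA had been sequenced from 4T1 cells, a mouse mammary carcinoma line. For these sorted cells the study's methods describe no engineered allele and no drug, and their genotype is wild type in that sense only. Cells were stained with MitoSpy Red at 20 nM, a dye that gathers in mitochondria with high MMP, and flow cytometry separated the brightest 5% (high MMP) from the dimmest 5% (low MMP). Each group had 2 libraries, numbered 1 and 2 in their titles, from 100000 cells and 200 ng of RNA each. The study counts the replicates of this comparison as independent experiments, but neither it nor the labels say what the numbers 1 and 2 mark.

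MMP is the voltage across the inner mitochondrial membrane. The respiratory chain builds it by pumping protons outwards, and ATP synthase spends it when protons flow back. The ADP/ATP carriers spend it too, because they export an ATP that carries more charge than the ADP they import, and uncoupling proteins can let current leak through the membrane. Calcium enters through the uniporter, pulled in by the same voltage, and every one of these metabolites first crosses the outer membrane through the VDAC channels. RNA levels of these genes measure neither the proteins nor the voltage.

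None of the 9 genes was called different between high and low MMP cells after correction for all genes tested. With 2 libraries per group, the main test called 0 of the 20197 genes, so the absence of a call does not show equal levels. *Mcu*, the pore subunit of the calcium uniporter, came closest: both high MMP libraries lay above both low MMP libraries, by 1.19-fold in the means. *Vdac3* showed the same order with a smaller gap (1.13-fold). The other 7 genes shared another pattern, in which high MMP 1 was the highest library and high MMP 2 did not lie above both low MMP libraries.

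The 4 libraries held between 22591970 and 26395015 reads assigned to genes, so that each of the 9 genes rested on 840 reads or more in every library. Values are given as normalized reads, which the authors scaled to a library total of 20000000, and differences as log2(value + 1) in high MMP minus that in low MMP cells, with their standard error (SE). Replicates differed by more than sampling noise (chi-square of 43.2 per gene between the high MMP libraries and 9.08 between the low MMP libraries). Of the epithelial markers *Epcam*, *Krt8*, *Krt18*, *Krt7* and *Cdh1*, all 5 were detected, with a summed level of 46063 to 63806, while leukocyte markers (3 of 5 in the table) summed to between 8.72 and 17.7 and endothelial markers (2 of 3) to between 1.74 and 6.2. In limma, 0% of the 20197 genes passed an adjusted p of 0.05 (smallest adjusted p = 0.472), while 3.95% had an unadjusted p under 0.05 with higher values in high MMP cells and 6.01% with lower values. edgeR called 0% without a block and 0.525% when blocked by replicate number, and DESeq2 called 0.584%. None of the 9 genes was among the calls of any of these tests, and 1 of 9, *Mcu*, had an unadjusted p under 0.05 in limma and in edgeR. In such bulk samples, fewer cells with a given transcript and less of it per cell cannot be told apart.

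The uniporter is treated first, since its pore carried the largest difference. *Mcu* and *Micu2* encode the pore and a gatekeeper of the same complex, yet their values ordered the libraries differently. *Mcu* (ENSMUSG00000009647) lies on the minus strand of chromosome 10 from 59446984 to 59616692 (GRCm38), and *Micu2* (ENSMUSG00000021973) on the minus strand of chromosome 14 from 57916261 to 57999262. Their promoters are shown as the sequence context of these partner genes. Each line gives the 120 bases before the RefSeq start (GRCm38.p6), 5′ to 3′ on the minus strand, at chr10:59616693-59616812 for *Mcu* and chr14:57999263-57999382 for *Micu2*. Capitals mark a CCAAT box (CCAAT, here as ATTGG on the other strand) in *Mcu* and a GC box (GGGCGG) in *Micu2*, and no base of either window lies in an annotated exon.
Mcu: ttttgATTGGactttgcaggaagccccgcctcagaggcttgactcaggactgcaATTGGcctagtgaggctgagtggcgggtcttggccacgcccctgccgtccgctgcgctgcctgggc
Micu2: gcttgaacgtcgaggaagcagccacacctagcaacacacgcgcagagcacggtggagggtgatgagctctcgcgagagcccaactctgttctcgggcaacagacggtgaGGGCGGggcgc

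The CCAAT boxes of *Mcu* stand at -115 to -111 and at -66 to -62 from the start, and the GC box of *Micu2* at -11 to -6. Over the 250 bases before the start, searched on both strands, RefSeq promoters were found for 7 of the 9 genes (not for *Vdac2* and *Vdac3*). A CCAAT box was present in 2 of these 7 (*Mcu* and *Slc25a4*) and in 33.85% of 32851 mouse promoters. For *Slc25a4*, all 120 bases before the RefSeq start lie in annotated exons, the CCAAT boxes included. For *Ucp2*, 21 of these 120 bases do. A GC box was present in 5 of 7 (*Atp5if1*, *Micu2*, *Slc25a5*, *Ucp2* and *Vdac1*) and in 32.74% of all promoters. These counts are per gene, while the percentages are per promoter. *Vdac1* had a further promoter inside the annotated gene (chr11:52361477-52361596 for the 120 bases before that start), and only this promoter held its GC boxes. The TATA box core (TATAA) was in 0 of 7 and in 22.78% of all. CACGTG, the E box that MYC can bind, and TGCGCA, the core of an NRF1 half-site, each occurred in 1 of 7 (*Atp5if1*), against 6.02% and 6.43% of all promoters. The RefSeq start of *Atp5if1* lies upstream of the annotated gene, on the minus strand. The 120 bases before that start are chr4:132535415-132535534, whereas the annotated gene ends at 132533659. The matches of *Atp5if1*, its GC box included, are thus not next to the annotated start. CCGGAAG, an ETS core, occurred in 2 (*Slc25a4* and *Vdac1*; 6.91% of all), and TGACGTCA, the cAMP response element core, in 0 (1.55% of all). In *Vdac1* the ETS core lay only in the promoter upstream of the annotated gene. No matches overlapped one another, and *Mcu* and *Micu2*, the uniporter genes, had none of these 7 motifs in common. A match of letters is not a bound site, and its absence says only that these letters were not in the window.

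*Mcu* stood at 910.8 normalized reads in high MMP 1, 916.3 in high MMP 2, 797.7 in low MMP 1 and 743.6 in low MMP 2. The high MMP libraries nearly coincided and the groups did not overlap. High MMP cells had a mean of 913.6 ± 3.92 and low MMP cells one of 770.6 ± 38.2 (SD, n = 2 each). The difference was 0.25 (SE 0.08) on the log2 scale. The unadjusted p was 0.0364 and the adjusted p 0.472 in limma (0.917 with the replicate block), while edgeR gave an unadjusted p of 0.026 and an adjusted p of 0.689. Leaving out any 1 library kept the difference between 0.20 and 0.30.

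*Micu2*, which helps to hold the pore shut at low calcium, had 1450, 1222, 1297 and 1293 normalized reads in high MMP 1, high MMP 2, low MMP 1 and low MMP 2. The low MMP values lay between the high MMP values, so the groups overlapped fully. The log2 difference was 0.04 (SE 0.11, limma adjusted p = 0.97), with means of 1336 ± 162 and 1295 ± 2.69 (SD, n = 2 each). Within each library the log2 ratio of *Micu2* to *Mcu* was 0.67, 0.41, 0.70 and 0.80 in the same order. Both high MMP libraries thus had a lower gatekeeper to pore ratio than both low MMP libraries, with a difference of -0.21 on the log2 scale, which was -0.08 without high MMP 2 and -0.33 without high MMP 1. Its exact permutation p was 0.33, two-sided, the smallest that 2 against 2 libraries allow (0.583 after adjustment over the 7 ratios computed). The ratio is of values not corrected for length, so only its change from library to library can be read.

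Further uniporter genes were taken from a list of 26 genes of the same processes, of which 24 were in the table. *Mcub*, a pore-like subunit that lowers uniporter current, had 432.7, 345.6, 307.7 and 285.9 normalized reads, and the groups did not overlap (difference 0.38, SE 0.15, limma adjusted p = 0.525; 0.22 without high MMP 1). *Smdt1*, which encodes the EMRE subunit that ties gatekeeper to pore, had 560.7, 440.2, 469 and 431.1, with overlapping groups (0.14, SE 0.15, limma adjusted p = 0.855). *Micu3* differed by 0.09 (SE 0.12) and *Mcur1* by -0.06 (SE 0.11), both with overlapping groups. Of the uniporter genes given here, *Mcu* and *Mcub* had every high MMP library above every low MMP library, and none passed the test over all genes. That order was also found in 14.9% of the 9999 genes averaging 100 normalized reads or more. The log2 ratio of *Smdt1* to *Mcu* was -0.70, -1.06, -0.76 and -0.79 and did not separate the groups (difference -0.10, exact permutation p = 1.0).

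**Figure D1:**
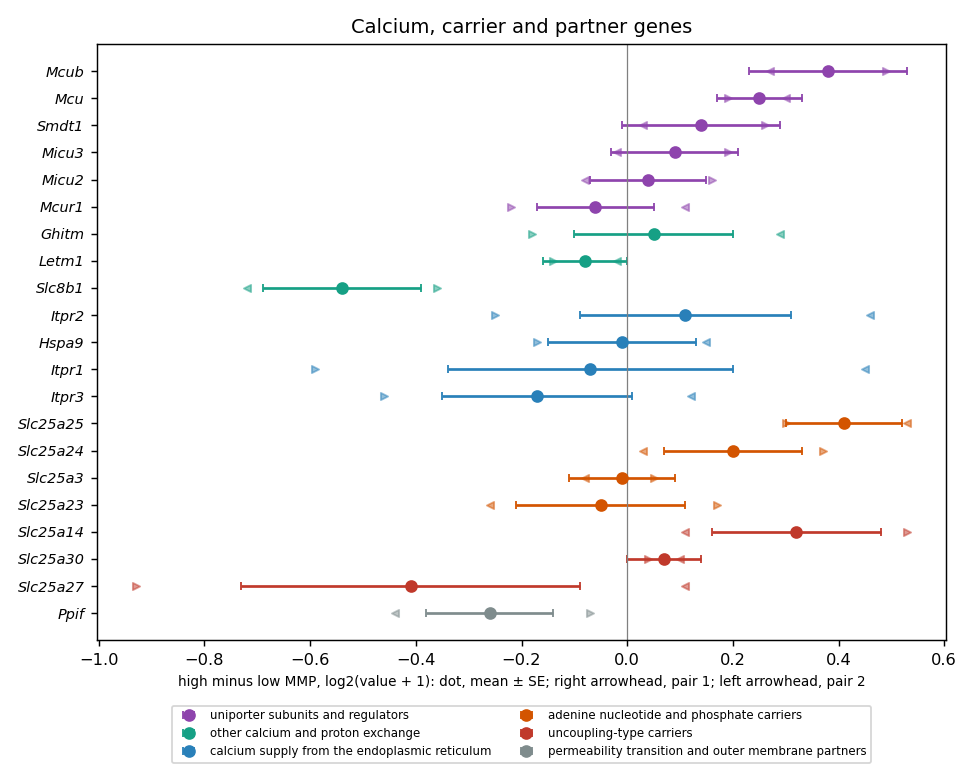
High minus low MMP difference on the log2(value + 1) scale for genes of calcium handling, carriers and partners, with dots for the limma estimate, bars for 1 SE (n = 2 per group) and arrowheads for the differences between same-numbered libraries (right, number 1; left, number 2). *Mcub*, *Mcu*, *Smdt1*, *Slc25a25*, *Slc25a24*, *Slc25a14* and *Slc25a30* lie to the right of 0 with both arrowheads on that side. *Slc8b1* at -0.54 lies to the left with both arrowheads, as do *Letm1* and *Ppif*, and *Itpr1* spans -0.59 to 0.45.

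Calcium leaves mitochondria through exchangers. *Slc8b1*, the sodium/calcium exchanger NCLX, stood at 190.9 and 189.1 normalized reads in high MMP and at 245.8 and 311.6 in low MMP libraries. Both high MMP values were below both low MMP values, a log2 difference of -0.54 (SE 0.15), or 0.682 times the low MMP mean, with an unadjusted p of 0.0227 and an adjusted p of 0.472 in limma. *Letm1*, a cation/proton exchanger, had 1875, 2051, 2070 and 2077, narrowly below both low MMP values in both high MMP libraries (-0.08, SE 0.08). *Ghitm*, another proton-coupled calcium exchanger, had 5736, 6328, 6518 and 5160, with overlapping groups (0.05, SE 0.15). *Itpr1*, *Itpr2* and *Itpr3*, the endoplasmic reticulum channels that supply this calcium, differed by -0.07 (SE 0.27), 0.11 (SE 0.20) and -0.17 (SE 0.18), and all 3 had their lowest value in high MMP 1. *Hspa9*, the chaperone that bridges these channels to VDAC, differed by -0.01 (SE 0.14).

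The ADP/ATP carriers, *Slc25a4* and *Slc25a5*, exchange matrix ATP for cytosolic ADP and were the most abundant of the 9 genes per exon length. Their coding sequences, of 897 bases each, were 77.5% identical in the GENCODE transcripts, and the longest run they share is printed because it is far shorter than a 75-base read.
Slc25a4 and Slc25a5, coding bases 322 to 341 of Slc25a4: cagttctggcgctactttgc

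No run of 75 bases of *Slc25a4* occurred in a transcript of another gene. For *Slc25a5*, 19.8% of its 75-base runs (325 of 1644) occurred in 6 processed pseudogenes, and the handling of such reads is not given in the sources used here. These 6 had a summed mean of 33.19 normalized reads, so *Slc25a5* is uncertain by what counting could have moved between them.

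*Slc25a4* (ENSMUSG00000031633, chromosome 8, 46206797 to 46211284, minus strand) had 11522 normalized reads in high MMP 1, 8837 in high MMP 2, 9219 in low MMP 1 and 10026 in low MMP 2. The high MMP libraries were the highest and the lowest of the 4. The difference was 0.07 (SE 0.17, limma adjusted p = 0.962), from means of 10179 ± 1899 and 9622 ± 570 (SD, n = 2 each).

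*Slc25a5* (ENSMUSG00000016319, chromosome X, 36795651 to 36798807, plus strand) had 14243, 11865, 12164 and 12555 in the same order. Again the low MMP libraries fell between the high MMP libraries. The difference was 0.07 (SE 0.13, limma adjusted p = 0.938), from means of 13054 ± 1682 and 12359 ± 277 (SD, n = 2 each). The log2 ratio of *Slc25a4* to *Slc25a5* was -0.31, -0.43, -0.40 and -0.32, so the balance of the carriers varied less than either gene and did not order the groups (exact permutation p = 1.0).

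*Slc25a31*, the germ cell carrier of this kind, and *Slc25a41* were not in the table. The calcium-regulated ATP-Mg/phosphate carriers change the matrix adenine nucleotide pool rather than swapping ADP for ATP. Among them, *Slc25a25* had 1101 and 1300 normalized reads in high MMP and 896.2 and 902.1 in low MMP libraries, a difference of 0.41 (SE 0.11, unadjusted p = 0.0179, limma adjusted p = 0.472), and its groups did not overlap. *Slc25a24* had 5353, 4409, 4150 and 4327, also without overlap (0.20, SE 0.13, limma adjusted p = 0.719; 0.06 without high MMP 1 and 0.34 without high MMP 2), and *Slc25a23* differed by -0.05 (SE 0.16). *Slc25a3*, which imports the phosphate that ATP synthase needs, had 14057, 13543, 13539 and 14282, with overlapping groups (-0.01, SE 0.10).

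*Ucp2* (ENSMUSG00000033685, chromosome 7, 100493337 to 100502020, plus strand) encodes an inner membrane carrier of the uncoupling protein family. It had 3888 normalized reads in high MMP 1, 2828 in high MMP 2, 3540 in low MMP 1 and 3839 in low MMP 2. High MMP 2 was the lowest library and the other 3 lay close together, and *Ucp2* had the widest spread of the 9 genes, 1.37-fold from lowest to highest. The difference was -0.15 (SE 0.18, limma adjusted p = 0.866), from means of 3358 ± 750 and 3690 ± 212 (SD, n = 2 each). The same-numbered libraries differed in opposite directions, by 0.14 for number 1 and by -0.44 for number 2. Against *Slc25a5* in the same library, the log2 ratio of *Ucp2* was -1.87, -2.07, -1.78 and -1.71. Both high MMP ratios were below both low MMP ratios, by -0.23 on the log2 scale (exact permutation p = 0.33, the smallest possible, adjusted p = 0.583; -0.13 without high MMP 2). Of its closest relatives, *Ucp1*, the brown fat form, and *Ucp3*, the muscle form, had 3 reads or fewer in every library. Among the other uncoupling-type carriers, *Slc25a14* (also called UCP5) had 150, 126.4, 103.7 and 116.9, without overlap (0.32, SE 0.16, limma adjusted p = 0.65; 0.20 without high MMP 1), *Slc25a30* differed by 0.07 (SE 0.07), and *Slc25a27* (UCP4) by -0.41 (SE 0.32), the last through a low value in high MMP 1 (94.71 against 159.3 to 181.3).

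*Atp5if1* (ENSMUSG00000054428, chromosome 4, 132530555 to 132533659, minus strand) encodes the inhibitor that stops ATP synthase from running backwards when MMP collapses. It had 2557, 2058, 2114 and 2304 normalized reads in high MMP 1, high MMP 2, low MMP 1 and low MMP 2. High MMP 1 was highest and high MMP 2 lowest. The difference was 0.06 (SE 0.14, limma adjusted p = 0.964), from means of 2308 ± 353 and 2209 ± 135 (SD, n = 2 each). Set against the geometric mean of 17 ATP synthase subunits in the same library, its log2 ratio was -0.19, -0.18, -0.20 and -0.22. The *Atp5if1* RNA therefore kept almost the same proportion to the subunit RNAs in every library, although its own value varied 1.24-fold. Its values also followed those of *Slc25a4* and *Slc25a5* closely over the libraries, so this was not particular to the ATP synthase genes. The ratio differed by 0.02 between the groups, with no overlap and an exact permutation p of 0.33, the smallest possible (adjusted p = 0.583).

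The VDAC genes encode the outer membrane channels for ATP, ADP and calcium. *Vdac1* (ENSMUSG00000020402, chromosome 11, 52360860 to 52389397, plus strand) had 8429, 6892, 7738 and 7704 normalized reads in the same order of libraries. Its low MMP values lay between the high MMP values, from group means of 7660 ± 1087 (high) and 7721 ± 24.2 (low; SD, n = 2 each). The difference of -0.02 (SE 0.13, limma adjusted p = 0.994) turned to 0.03 in edgeR and DESeq2 and to 0.02 with median-of-ratios scaling.

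*Vdac2* (ENSMUSG00000021771, chromosome 14, 21825238 to 21845879, plus strand) had 6057, 5617, 5615 and 5627. It was the steadiest of the 9, with 3 libraries almost equal and a spread of 1.08-fold. The difference was 0.05 (SE 0.09, limma adjusted p = 0.927), from means of 5837 ± 311 and 5621 ± 8.3 (SD, n = 2 each).

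*Vdac3* (ENSMUSG00000008892, chromosome 8, 22577075 to 22593813, minus strand) had 4472 and 3793 in high MMP and 3709 and 3613 in low MMP libraries. The groups did not overlap, but high MMP 2 exceeded low MMP 1 only slightly. The difference was 0.17 (SE 0.11, unadjusted p = 0.2, limma adjusted p = 0.734), from means of 4133 ± 480 and 3661 ± 68.3 (SD, n = 2 each). Without high MMP 1 it was 0.05, and without high MMP 2 it was 0.29.

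Within each library, the log2 ratio of *Vdac3* to *Vdac2* was -0.44, -0.57, -0.60 and -0.64, higher in both high MMP libraries by 0.12 (exact permutation p = 0.33, the smallest possible, adjusted p = 0.583). This difference was 0.05 without high MMP 1 and 0.18 without high MMP 2. The ratio of *Vdac1* to *Vdac2* was 0.48, 0.30, 0.46 and 0.45 and did not separate the groups. The coding sequences of *Vdac1* and *Vdac2* were 69.1% identical, those of *Vdac2* and *Vdac3* 68.4% and those of *Vdac1* and *Vdac3* 63.6%. The longest runs shared with *Vdac2* are shown, again because they are shorter than a read.
Vdac1 and Vdac2: acagagaagtggaacac
Vdac2 and Vdac3: cactcgttttggcat

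The channels share no 75-base run with each other, but 11.4% of the runs of *Vdac3* occurred in *Vdac3-ps1* (mean 49.9 normalized reads) and *Gm7591* (1.83), and 1.5% of those of *Vdac2* in *Gm7832* (8.96). On the opposite strand, exons of *Comtd1* overlap 25 exon bases of *Vdac2*, those of *Gm12999* 485 of *Atp5if1* and those of *Dnajb13* 305 of *Ucp2*. The library kit kept strand, but the strand setting of the counting is not given in the sources used here.

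**Figure D2:**
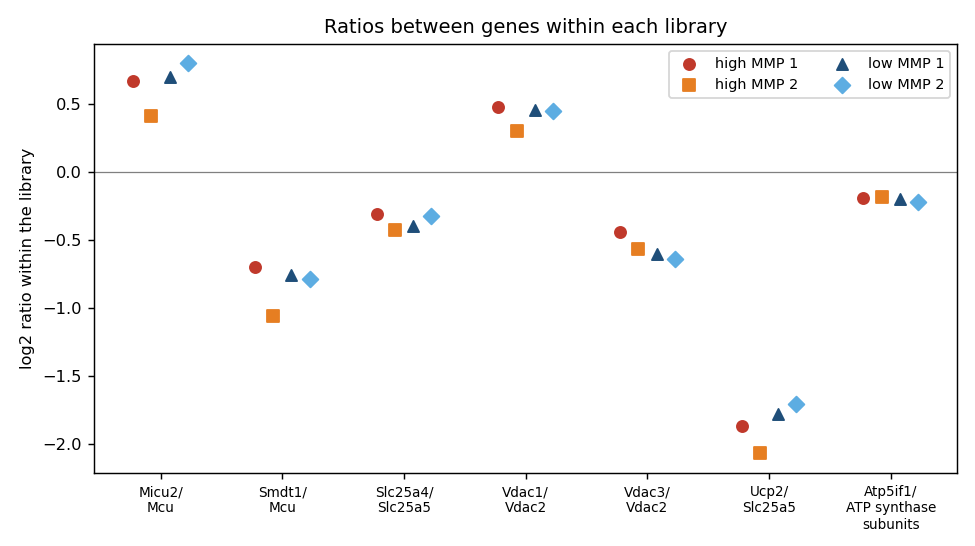
Log2 ratio between genes within each library, 1 point per library, for the 7 ratios (red circle and orange square, high MMP 1 and 2; dark triangle and light diamond, low MMP 1 and 2). *Micu2* to *Mcu* and *Ucp2* to *Slc25a5* lie lower in both high MMP libraries, *Vdac3* to *Vdac2* lies higher, and *Atp5if1* to the ATP synthase subunits stays between -0.22 and -0.18. Any ratio with separated groups has an exact permutation p of 0.33, the smallest that 2 against 2 libraries allow (adjusted p = 0.583). How often other gene pairs separate the groups was not tested.

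Among 4 genes of the permeability transition and of the outer membrane, 1 had separated groups, with high below low MMP. Of 9999 genes averaging 100 normalized reads or more, 22.7% had that order. *Ppif*, which encodes the matrix cyclophilin that promotes opening of the permeability transition pore, had 1023, 947.3, 1075 and 1287 normalized reads (-0.26, SE 0.12, limma adjusted p = 0.615), with both high MMP values below both low MMP values. Its difference was -0.13 without low MMP 2 and -0.39 without low MMP 1. *Tspo*, the outer membrane translocator protein, and *Hk1* and *Hk2*, hexokinases that dock on VDAC, had overlapping groups, with differences between -0.00 and 0.06.

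Counted together, 2 of the 9 genes (*Mcu* and *Vdac3*) had both high MMP libraries above both low MMP libraries, and 0 of 9 had the reverse. Of 9999 genes averaging 100 normalized reads or more, 14.9% had the first order and 22.7% the second. The count of the first order rested on high MMP 2: without that library it was 9 of 9, against 36.6% of the 9999 genes. It was 2 without high MMP 1 (34.2%) or low MMP 1 (24.3%), and 3, with *Vdac2* added, without low MMP 2 (23.5%). Of the 22 pathway genes with such a mean, 5 had the first order (*Slc25a14*, *Slc25a30*, *Slc25a24*, *Slc25a25* and *Mcub*) and 3 the second (*Slc8b1*, *Letm1* and *Ppif*). The 9 genes differed by a median of 0.06, the 24 pathway genes by -0.01 and all 20197 genes by -0.04 on the log2 scale. In limma, 0 of the 24 pathway genes passed the adjusted threshold, with 1 higher (*Slc25a25*) and 1 lower (*Slc8b1*) at an unadjusted p under 0.05. Of all 20197 genes, 3.95% were higher and 6.01% lower at that unadjusted threshold.

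**Figure D3:**
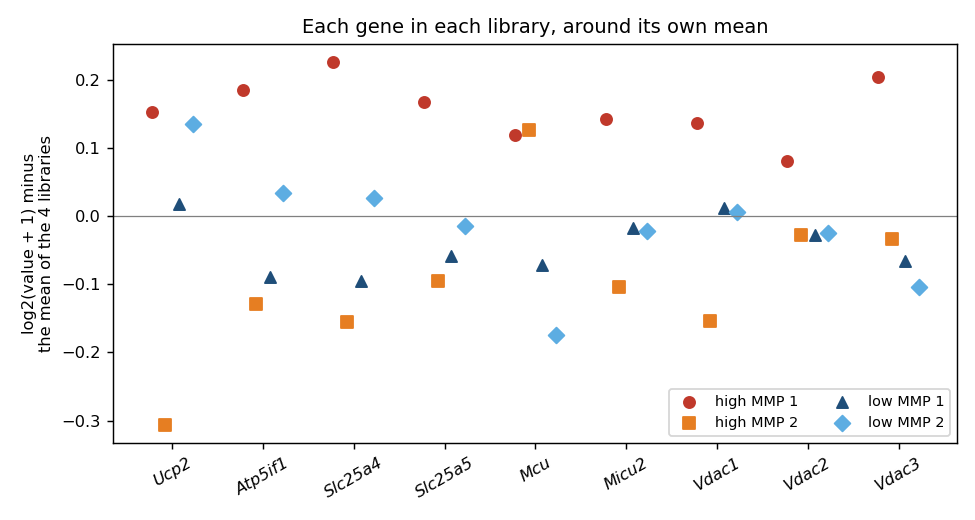
Each of the 9 genes in each library, as log2(value + 1) minus the gene's mean over the 4 libraries, so that 0 on the vertical axis is that mean. High MMP 1 (red circles) is the highest library for 8 of the 9 genes, while for *Mcu* both high MMP libraries stand together above the low MMP libraries.

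The pattern that most of the 9 genes shared did not follow the sort. High MMP 1 was the highest library for 8 of 9, the exception being *Mcu*, against 29.8% of the 9999 genes. In 7 of 9 the difference between same-numbered libraries was above 0 for number 1 and below 0 for number 2, against 27.0% of the genes. High MMP 1 exceeded the mean of the other 3 libraries by 0.11 (*Vdac2*) to 0.30 (*Slc25a4*) on the log2 scale. High MMP 2 against the low MMP libraries gave 0.25 for *Mcu* and 0.05 for *Vdac3*, while the other 7 genes lay between -0.38 (*Ucp2*) and -0.00 (*Vdac2*). Leaving out high MMP 1 thus turned the direction of *Atp5if1* (-0.10), *Slc25a4* (-0.12), *Slc25a5* (-0.06), *Micu2* (-0.08) and, barely, *Vdac2* (-0.0011). It moved the median of the 9 from 0.06 to -0.08. Without high MMP 2, *Ucp2* (0.08) and *Vdac1* (0.13) turned instead.

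**Figure D4:**
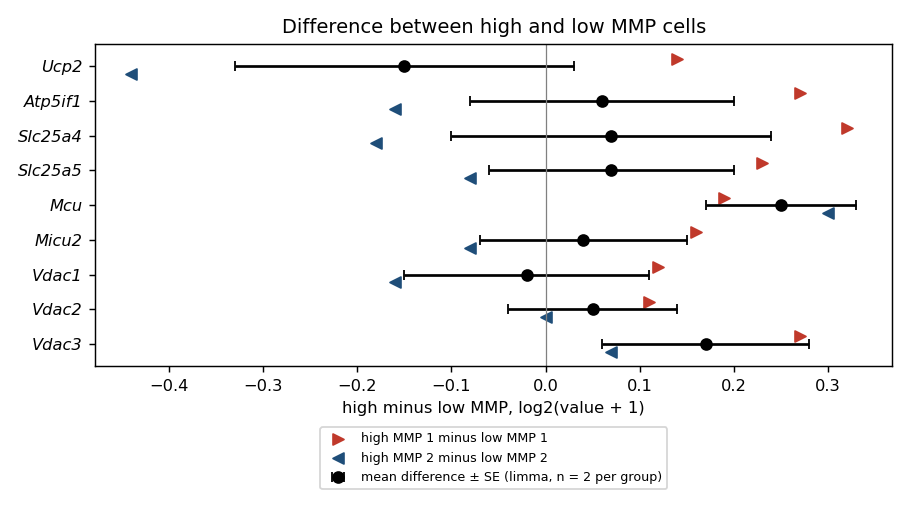
High minus low MMP difference of the 9 genes on the log2(value + 1) scale, with black dots and bars for the limma estimate and its SE (n = 2 per group), red arrowheads for high MMP 1 minus low MMP 1 and blue arrowheads for high MMP 2 minus low MMP 2. The arrowheads fall on the same side of 0 for *Mcu* and *Vdac3*, and on opposite sides or at 0 for the other 7.

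Other measurements moved with high MMP 1. Of 17 ATP synthase subunit genes, 14 were highest in high MMP 1 and 16 were above 0 for the number 1 libraries and below 0 for the number 2 libraries, with a median of 0.33 for high MMP 1 minus high MMP 2 (0.26 for the 9 genes and -0.02 for all genes averaging 100 or more). The mitochondrially encoded coding genes took 1.27% of the reads in high MMP 1 and 2.02% to 2.24% in the other libraries. Across 9990 genes, the excess of high MMP 1 over the other libraries fell with exon length (Spearman rho = -0.332 across genes, which are not replicates and share the same libraries), and that of high MMP 2 over the low MMP libraries went the other way (rho = 0.265). Of 5 equal bins of genes by exon length, the shortest, 67 to 2634 bases, had a median excess of 0.12 in high MMP 1 and held 4 of the 9 genes (*Atp5if1*, *Slc25a4*, *Slc25a5* and *Vdac1*). The longest bin had -0.13 and held 0 of the 9. Of the bins between, that with a median of 0.01 held *Micu2*. The bin with -0.05 held *Vdac2* and *Vdac3*, and that with -0.08 held *Ucp2* and *Mcu*. The excess of these genes in high MMP 1 was above the median of their bins: 0.19 (*Micu2*), 0.11 (*Vdac2*), 0.27 (*Vdac3*), 0.20 (*Ucp2*) and 0.16 (*Mcu*). The part of length and of library in these values was not tested. *Mcu*, with 6936 exon bases, was not among the short genes. Beside its difference, 54 G2/M-phase genes had a median difference of 0.32, and 45 of them had both high MMP libraries above both low MMP libraries (14.9% of the 9999 genes), though limma called 0 genes. The part of these genes in the *Mcu* value was not tested either.

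Compared per kb of annotated exon, the 9 genes spanned a wide range of levels. *Slc25a5* was highest at 7720 normalized reads per kb (7208 to 8653 over the 4 libraries), followed by *Slc25a4* at 4208 (3756 to 4897), *Vdac1* at 2935 (2631 to 3217) and *Atp5if1* at 1567 (1428 to 1775). *Vdac2* at 1201 (1177 to 1270) and *Vdac3* at 719 (667 to 825) came next. *Ucp2* at 504 (405 to 556) and *Micu2* at 427 (396 to 470) were the only neighbours whose ranges overlapped. *Mcu* was lowest at 121 (107 to 132), below its gatekeeper *Micu2* in every library. The order is that of the summed exons of all annotated isoforms, and the isoforms in use were not measured.

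**Figure D5:**
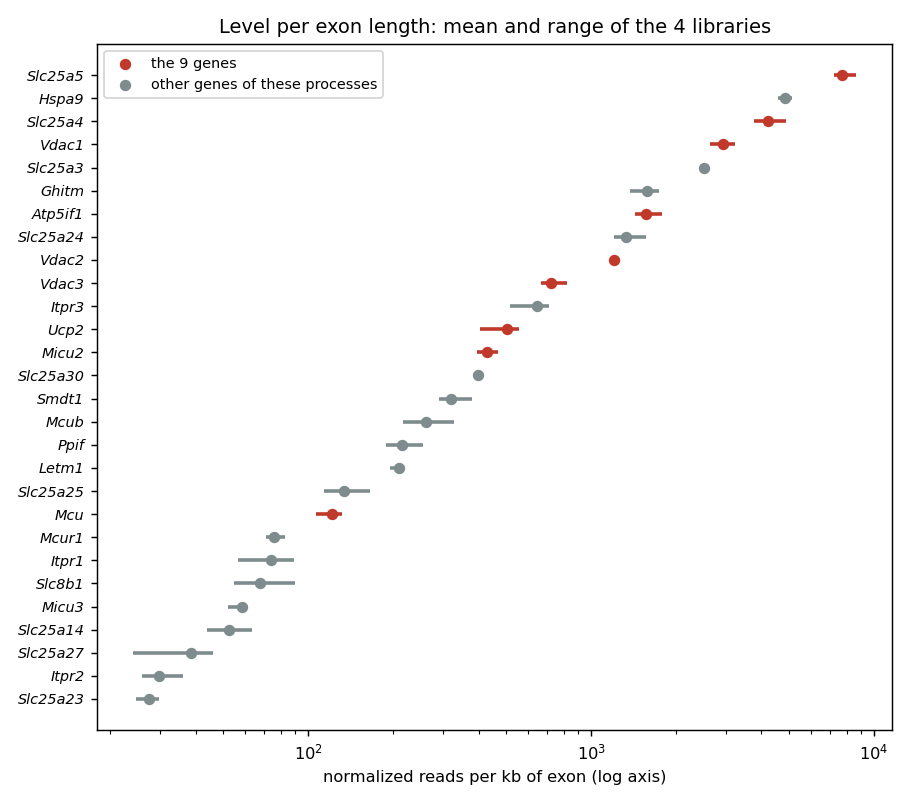
Level of the 9 genes (red) and of other genes of the same processes (grey) in normalized reads per kb of exon, on a log axis, with dots for the mean and lines for the range of the 4 libraries. The carriers *Slc25a5* and *Slc25a4* and the channel *Vdac1* stand near the top, and *Mcu* stands at 121, near *Slc25a25*.

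The patterns were also compared with those of all other genes averaging 100 or more, as the root-mean-square distance between mean-centred log2(value + 1) values over the 4 libraries. Among the 9, *Slc25a5* and *Micu2* (0.0251) and *Atp5if1* and *Slc25a4* (0.0255) were closest, and *Ucp2* and *Mcu* were farthest apart (0.27). The pattern of *Slc25a5* was common: 768 of 9998 genes lay within 0.05 of it, the nearest being *Suclg1* (0.00386), *Rfk* (0.00484) and *Eif2s1* (0.00537). That of *Ucp2* was rarer, with 63 genes, the nearest being *Rpp25l* (0.00709), *Ak3* (0.0186) and *Cenpk* (0.0204). *Mcu* had 147, led by *Rassf5* (0.00928), *Trmt10b* (0.0112) and *Efcab11* (0.012). With 4 libraries, such closeness is a description only.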

How the data were processed

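RNA sequencing of 4 libraries of sorted 4T1 cells was used, 2 of high and 2 of low MMP, grouped by their titles. Per the labels and the study's methods, the authors aligned the reads to GRCm38 (mm10) with STAR, and the submitters' processing notes also name HTSeq. Versions and annotation release are not given in the sources used here. The deposited values are a normalized signal per gene: counts divided by the library total and filtered for detection, which leaves 20197 genes. Within a column 100.0% of values were whole multiples of 1 step within 0.05 reads, which recovered the reads and the depth. Identifiers were matched to GENCODE M21 on GRCm38 (19993 of 20197).

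The test was limma 3.58.1 (trend, no block) in R 4.3.3 on log2(value + 1), adjusted by Benjamini-Hochberg over all genes. Changes of low genes come out too small on this scale. edgeR 4.0.16 and DESeq2 1.42.0 were run on the recovered reads. Ratios within libraries were tested by exact permutation (scipy 1.17.1). Promoters came from RefSeq (GRCm38.p6), and 120 of the 250 bases searched are printed. Coding sequences were aligned with Biopython 1.88.

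The 9 genes, the pathway list, the G2/M-phase and ATP synthase lists and the tests were chosen with earlier results of these data known. The genes named are the 9, the detected uniporter, carrier and calcium genes of the pathway list, the gene with the largest difference in each of its other subgroups, and the 3 genes nearest in pattern to *Ucp2*, *Slc25a5* and *Mcu*. *Tspo*, *Hk1* and *Hk2*, given as a range, complete the list, and 1 further gene is not reported here. Alternatives were other pseudocounts (0.5 and 5), a mean of at least 10, median-of-ratios and quantile scaling, no trend, a replicate block and leaving out each library.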

Additional observations from a re-analysis of the deposited data

How the results depend on the processing

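None of the 9 genes was called under any alternative, and *Mcu* stayed higher in high MMP cells under each that gave it a value. The number of genes called over the table was 0 in every limma fit, 0 in unblocked edgeR (1423 at an unadjusted p under 0.05), 118 in DESeq2, and 106 when edgeR took the replicate block. The deviations of same-numbered libraries had a correlation of -0.421 over 12902 genes, so these libraries did not deviate together. With 2 libraries per group this is a single contrast and cannot decide whether the numbers pair the libraries. The replicate block called 0 genes in limma. With crossed numbers as the block, chosen after seeing the data, limma called 0 genes and edgeR 733, with 3 pathway genes and 0 of the 9 among them. *Vdac1* turned to 0.02 with median-of-ratios scaling and in edgeR with the replicate block, and to 0.03 in edgeR and DESeq2. *Slc25a3* and *Hspa9* turned to 0.03 in those same 4 settings, and *Slc25a23* to 0.03 with quantile scaling. The cause was not tested. Median-of-ratios scaling moved the median of all genes from -0.04 to -0.01.

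Leaving out each library in turn (the lone library then assumed to vary like the other group) gave -0.08 to 0.20 for the median of the 9 genes. It gave -0.38 to 0.08 for *Ucp2*, -0.10 to 0.21 for *Atp5if1*, -0.12 to 0.26 for *Slc25a4*, -0.06 to 0.20 for *Slc25a5*, -0.08 to 0.16 for *Micu2*, -0.16 to 0.13 for *Vdac1* and -0.0011 to 0.11 for *Vdac2*. Among pathway genes it gave -0.84 to 0.01 for *Slc25a27*, -0.05 to 0.03 for *Slc25a3*, -0.16 to 0.07 for *Slc25a23*, -0.03 to 0.21 for *Micu3*, -0.03 to 0.32 for *Smdt1* and -0.16 to 0.04 for *Mcur1*. It gave -0.11 to 0.22 for *Ghitm*, -0.40 to 0.26 for *Itpr1*, -0.13 to 0.35 for *Itpr2*, -0.40 to 0.06 for *Itpr3* and -0.09 to 0.07 for *Hspa9*. Among genes that kept their direction it gave 0.05 to 0.29 for *Vdac3*, 0.22 to 0.54 for *Mcub*, 0.06 to 0.34 for *Slc25a24*, 0.20 to 0.44 for *Slc25a14*, 0.04 to 0.09 for *Slc25a30*, -0.39 to -0.13 for *Ppif* and -0.15 to -0.02 for *Letm1*. The count of the 9 genes with both high above both low MMP libraries ran from 2 to 9, an alternative chosen after seeing the data. For the log2 ratios it gave -0.33 to -0.08 (*Micu2* to *Mcu*), 0.05 to 0.18 (*Vdac3* to *Vdac2*), -0.32 to -0.13 (*Ucp2* to *Slc25a5*), -0.28 to 0.08 (*Smdt1* to *Mcu*), -0.06 to 0.06 (*Slc25a4* to *Slc25a5*) and -0.16 to 0.02 (*Vdac1* to *Vdac2*). Counting error is small at these depths, so the 2 libraries per group limit the precision.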
